A study of Saccharomyces cerevisiae with 6 samples.

Results

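The 29 genes described here encode the enzymes of the tricarboxylic acid (TCA) cycle of budding yeast, the pyruvate dehydrogenase complex that feeds it, the glyoxylate bypass, and the pyruvate carboxylases and malic enzyme that fill or drain it. They were taken by gene symbol from a fixed list, and all 29 had 1 probe set each among the 5449 Saccharomyces cerevisiae genes measured. Signals were read on 6 Affymetrix arrays, 3 for each of 2 strains. The YRA1∆i cells were W303-1A, a MATa strain with the alleles ura3-1, trp1-1, ade2-1, can1-100 and his3-11,15 and a mutant leu2 allele, with the plasmid pRS413::GAL-YRA1∆i, on which the galactose-driven GAL promoter expresses a YRA1 copy that lacks its intron. The WT cells were the same strain with pRS413::GAL-YRA1, where the copy keeps the intron that holds YRA1 expression down, so these cells also carried a galactose-driven YRA1 and are not a strain with an empty plasmid. Both strains were grown in minimal medium with raffinose and moved to 2% galactose for 4 hours before total RNA was taken. No culture in another carbon source was included, so the levels below describe cells in galactose and not a response to it.

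In mitochondria, pyruvate dehydrogenase turns pyruvate into acetyl-CoA, which citrate synthase joins to oxaloacetate, and the cycle then oxidises the carbon in steps that yield reduced cofactors for respiration and precursors such as 2-oxoglutarate for amino acid synthesis. The glyoxylate bypass skips the decarboxylating steps and lets cells build sugars from acetate or ethanol. Budding yeast keeps separate genes for several of these reactions in mitochondria, cytosol and peroxisomes, and many of the genes respond to the carbon source, to the Hap2/3/4/5 activator of respiratory genes, to the Cat8 and Sip4 activators of gluconeogenic genes, and to the retrograde Rtg proteins.

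Values are log2 RMA signals, a scale on which 1 unit is a 2-fold difference, and changes are YRA1∆i minus WT. Signals of different probe sets depend on their probes, so levels are compared only between arrays for the same gene. Array medians over the 5498 tested S. cerevisiae probe sets ran from 11.16 to 11.18. YRA1 itself averaged 14.54 ± 0.08 in YRA1∆i cells and 13.34 ± 0.11 in WT cells (SD, n = 3 each), a log2 change of 1.20 (adjusted p = 0.0102 with limma). GAL1, GAL7 and GAL10, markers of galactose growth, lay between 14.55 and 14.77 on all arrays. MFA1, MFA2, STE2 and STE6, which mark MATa cells, lay between 11.77 and 14.09, while BAR1, another MATa gene, lay between 3.14 and 3.47, below the background of 4.70. Among MATalpha markers, MF(ALPHA)2 lay at 6.35 to 6.58, STE3 at 7.93 to 8.67, MF(ALPHA)1 at 6.61 to 9.01 and SAG1 at 9.91 to 10.48. Replicate 2 of both strains stood apart from the other arrays, and values without both replicate 2 arrays are given at the genes where they differ most.

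The signals of all 29 genes lay above background, as did the mean signals of 98.9% of all tested probe sets. The background of 4.70, the 95th percentile of the probe sets for Schizosaccharomyces pombe on the same arrays, was exceeded by every gene on all 6 arrays, with values from 8.83 (MLS1 in WT replicate 1) to 14.25 (ACO1 in YRA1∆i replicate 2). The MATalpha markers also lay above this background on all arrays, at 6.35 to 10.48, a range that holds the lowest signals of the 29 genes. Passing the background therefore does not show that a gene is expressed. On every array 17 of the genes lay above 13. The highest value of any probe set was 15.12, and differences close to the top of an array's scale can be compressed.

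Most of these genes differed little between the strains, and none passed a threshold over all probe sets. At the study's thresholds (adjusted p below 0.01 and at least 1.5-fold, limma with Benjamini-Hochberg adjustment over 5498 probe sets) 0 of 29 were called, as were 0% of all probe sets. The study's own list of up-regulated genes nevertheless names PYC1, at 1.405-fold. It also names PDC5, a gene outside the 29, at 1.329-fold, so that list holds genes below 1.5-fold. With the limits set at 0.05 and 1.5-fold the count was again 0 of 29, against 0.4% of all probe sets. At an unadjusted p below 0.05, 3 genes were higher in YRA1∆i cells (PYC1, IDH1 and PDX1; background 9.79%) and 0 were lower (background 6.31%), or 3 in either direction (background 16.1%). The signals of the strains did not overlap at 3 higher genes, the same ones (background 13.6%), and at 2 lower genes, ICL1 and IDP1 (background 8.57%). The 5 genes without overlap stand beside a background of 22.2% in either direction, so the share was not above that of all probe sets. The median change over the 29 genes was -0.0036, beside 0.0091 over all probe sets, and 17 of the 29 differed by less than 0.1 in either direction. Such a change was found in 58.6% of the genes and in 46.5% of all probe sets.

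**Figure D1:**
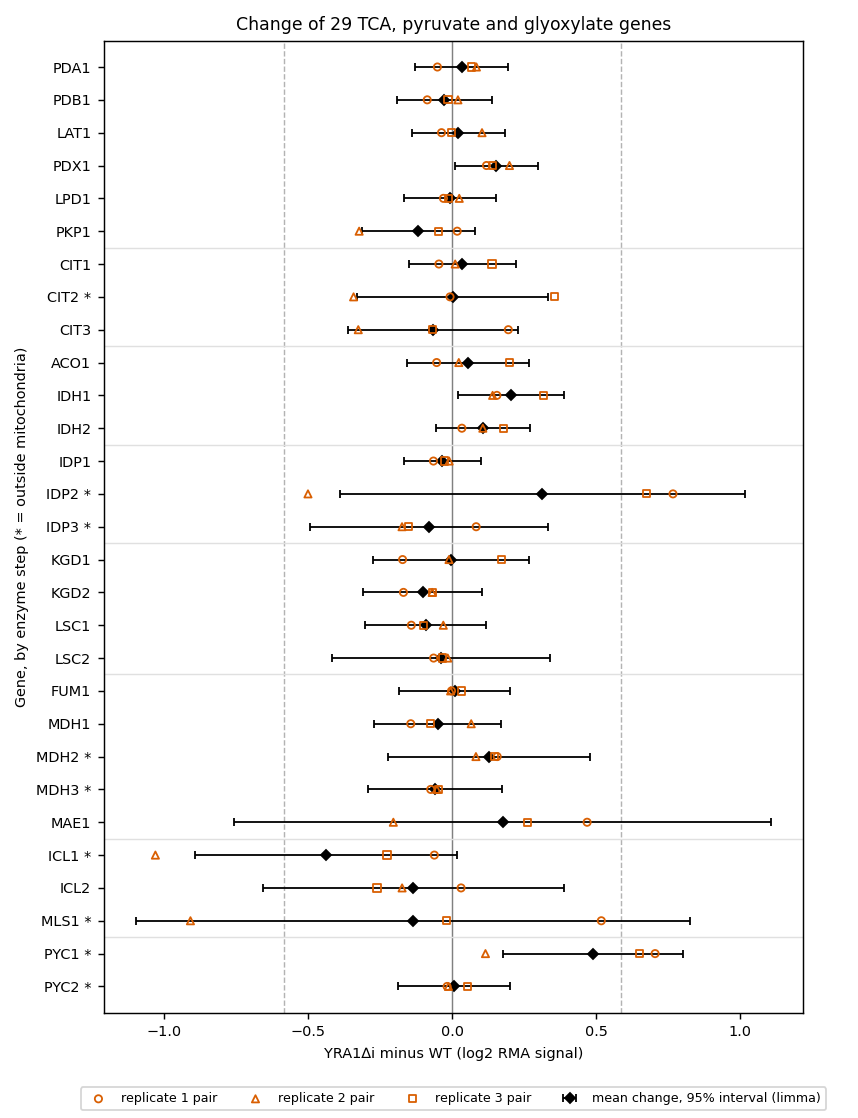
Change of each of the 29 genes (rows, grouped by enzyme step) on the log2 scale, YRA1∆i minus WT, with black diamonds for the mean and bars for the 95% confidence interval from limma, open symbols for the difference within each replicate number, and dashed lines at 1.5-fold. Only PYC1 (0.49), IDH1 (0.20) and PDX1 (0.15) have intervals that leave out 0. The symbols of replicate 2 lie far from the others at genes such as PYC1, MAE1, ICL1, IDP2 and MLS1.

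The 20 mitochondrial enzymes and the 9 enzymes outside mitochondria had unlike spreads. The median change was -0.0047 for the mitochondrial genes, which ran from -0.13 to 0.20, and 0.0021 for the other genes, which ran from -0.44 to 0.49. Without both replicate 2 arrays the median was -0.0070 for the mitochondrial genes and 0.15 for the other genes, and with array weights it was -0.0225 for the mitochondrial genes and 0.0931 for the other genes. The 3 genes that differed by more than 0.25 in the mean (PYC1, ICL1 and IDP2) all belong to the group outside mitochondria. A difference of that size, in either direction, was found at 960 of all 5498 tested probe sets. The mitochondrial gene MAE1 differed by 0.18 in the mean, but by 0.37 without both replicate 2 arrays. Arrays of the same strain also differed more for that group. Its median SD was 0.12 in YRA1∆i cells and 0.23 in WT cells. The mitochondrial genes had a median SD of 0.08 in YRA1∆i cells and 0.09 in WT cells. Over all tested probe sets the median SD was 0.11 in YRA1∆i cells and 0.13 in WT cells. The 17 genes with signals above 13 on every array had a median SD of 0.08 in YRA1∆i cells and 0.07 in WT cells. Compartment was not separated from signal level here. The largest SD of any of the 29 genes in YRA1∆i cells was that of MAE1, in mitochondria (0.71).

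Pyruvate dehydrogenase genes gave nearly the same signal in both strains. PDA1 (YER178W) and PDB1 (YBR221C) encode the E1 subunits that decarboxylate pyruvate, LAT1 (YNL071W) the acetyltransferase core, and LPD1 (YFL018C) the lipoamide dehydrogenase that the oxoglutarate and glycine complexes also use. Over all arrays the signals of these 4 genes lay between 13.73 and 14.12, and their changes lay between -0.03 and 0.03 (lowest adjusted p = 0.856). The 95% confidence intervals of these changes reached no further than -0.19 and 0.19.

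PDX1 (YGR193C), whose product anchors lipoamide dehydrogenase to the core of the complex, was the subunit with the lowest p. Its signal was 11.91, 11.89 and 11.90 on YRA1∆i arrays 1, 2 and 3, against 11.79, 11.69 and 11.76 on the WT arrays. All 3 YRA1∆i arrays thus lay above all 3 WT arrays, by a small margin. The change was 0.15 (SE 0.06, 95% confidence interval 0.01 to 0.30, 1.11-fold), with an unadjusted p of 0.0397 and an adjusted p of 0.283 in limma. It was 0.12, 0.20 and 0.14 in replicates 1, 2 and 3, and it kept its direction in every alternative, with adjusted p from 0.0753 to 0.687.

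PKP1 (YIL042C) encodes a mitochondrial kinase that inactivates the complex by phosphorylating its E1 subunit. It averaged 11.33 ± 0.08 in YRA1∆i cells and 11.44 ± 0.10 in WT cells (SD, n = 3 each), a change of -0.12 (adjusted p = 0.578), of which -0.32 was found in replicate 2 and 0.02 and -0.05 in replicates 1 and 3. Without both replicate 2 arrays the PKP1 change was -0.0139 (adjusted p = 0.879). The other kinase gene, PKP2, differed by -0.15 (adjusted p = 0.600). PTC5 and PTC6, which encode the phosphatases that reverse the phosphorylation, differed by 0.15 each (adjusted p = 0.367 and 0.341). Both phosphatase genes had all YRA1∆i arrays above all WT arrays (background 13.6%). Lipoate, the cofactor of the complex, is attached by enzymes including the ligase Aim22, whose gene was measured at 9.66, 10.16 and 9.64 in YRA1∆i cells, against 10.09, 10.52 and 10.17 in WT cells. The AIM22 change of -0.44 had an adjusted p of 0.307, or 0.0470 with replicate number as a block. It was the only gene of the 7 measured in the lipoate list below an unadjusted p of 0.05, and LIP5, the lipoate synthase gene, differed by 0.04.

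The enzymes of the cycle proper were likewise close in the strains. CIT1 (YNR001C), the mitochondrial citrate synthase, averaged 14.12 ± 0.06 in YRA1∆i cells and 14.08 ± 0.10 in WT cells (SD, n = 3 each). ACO1 (YLR304C), the aconitase, averaged 14.18 ± 0.06 in YRA1∆i cells and 14.12 ± 0.13 in WT cells (SD, n = 3 each). KGD1 (YIL125W) and KGD2 (YDR148C), subunits of the oxoglutarate dehydrogenase, differed by -0.0036 and -0.10. LSC1 (YOR142W) and LSC2 (YGR244C), the subunits of succinyl-CoA ligase, differed by -0.09 and -0.04. All 4 of these were negative, with adjusted p from 0.649 to 0.993. Fumarase, FUM1 (YPL262W), differed by 0.0088 and mitochondrial malate dehydrogenase, MDH1 (YKL085W), by -0.05. The succinate dehydrogenase genes SDH1 to SDH4, which complete the cycle, differed by -0.07 to 0.02 (lowest adjusted p = 0.706).

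The NAD-dependent isocitrate dehydrogenase has 2 genes. Idh1 is the regulatory subunit and Idh2 the catalytic subunit of this allosteric enzyme. IDH1 (YNL037C) was measured at 13.55, 13.63 and 13.59 in YRA1∆i cells, against 13.39, 13.49 and 13.27 in WT cells. No WT array reached the lowest YRA1∆i array. The change was 0.20 (SE 0.08, 95% confidence interval 0.02 to 0.39, 1.15-fold), with an unadjusted p of 0.0355 and an adjusted p of 0.269 in limma. Over the alternatives the adjusted p for IDH1 ranged from 0.0399, with array weights that called 17.8% of all probe sets, to 0.630. IDH2 (YOR136W) was measured at 13.78, 13.90 and 13.85 in YRA1∆i cells, against 13.74, 13.79 and 13.67 in WT cells. Here the groups overlapped, since YRA1∆i replicate 1 lay just below WT replicate 2, and the change of 0.11 had an adjusted p of 0.519. Both genes were higher in YRA1∆i cells in all 3 replicate numbers. The same sign in all 3 replicate numbers was found at 11 of the 29 genes (37.9%) and at 50.6% of all probe sets.

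Among the citrate synthases, neither the peroxisomal nor the other mitochondrial isozyme was shifted in the mean. CIT2 (YCR005C), the peroxisomal enzyme and the best known target of the retrograde pathway, was measured at 13.60, 13.39 and 13.63 in YRA1∆i cells, against 13.60, 13.73 and 13.27 in WT cells. Its mean change was 0.0021, while the replicates differed by -0.0070, -0.34 and 0.36, so the values moved in opposite directions in replicates 2 and 3. Without both replicate 2 arrays the CIT2 change was 0.17 (adjusted p = 0.372). CIT3 (YPR001W), a mitochondrial synthase that also makes methylcitrate, differed by -0.07 (adjusted p = 0.845). ICL2 (YPR006C), the methylisocitrate lyase of the same propionate pathway, differed by -0.13 (adjusted p = 0.826). PDH1, the gene of its methylcitrate dehydratase, was measured at 12.06, 12.24 and 12.03 in YRA1∆i cells, against 11.58, 12.21 and 11.45 in WT cells (change 0.36, adjusted p = 0.460). Without both replicate 2 arrays the PDH1 change was 0.53 (adjusted p = 0.0205). PDH1 is named after its values were seen.

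The NADP-dependent isocitrate dehydrogenases supply NADPH in 3 compartments and are encoded by separate genes. IDP1 (YDL066W), in mitochondria, was measured at 13.88, 13.91 and 13.90 in YRA1∆i cells, against 13.94, 13.92 and 13.93 in WT cells. The YRA1∆i arrays were all lower, but by a change of only -0.03 (adjusted p = 0.828). IDP3 (YNL009W), in peroxisomes, averaged 9.64 ± 0.20 in YRA1∆i cells and 9.72 ± 0.28 in WT cells (SD, n = 3 each).

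IDP2 (YLR174W), the cytosolic enzyme, was measured at 12.24, 12.05 and 12.22 in YRA1∆i cells, against 11.47, 12.55 and 11.55 in WT cells. The YRA1∆i arrays lay between the WT arrays, since WT replicate 2 was the highest of all 6 and WT replicates 1 and 3 the lowest. The change was 0.31 (SE 0.29, adjusted p = 0.685), made of 0.77, -0.50 and 0.67 in replicates 1, 2 and 3. Without WT replicate 2 it was 0.66 (adjusted p = 0.0530). Without both replicate 2 arrays it was 0.72 (adjusted p = 0.00779 in limma), and with array weights it was 0.61 (adjusted p = 0.0366).

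At the cytosolic malate dehydrogenase and the malic enzyme, replicate 2 lay apart from the other arrays of its strain. MDH2 (YOL126C), the cytosolic malate dehydrogenase used in gluconeogenesis, was measured at 13.94, 13.55 and 13.91 in YRA1∆i cells, against 13.79, 13.46 and 13.77 in WT cells. Replicate 2 was the lowest array of each strain, and within each replicate number the YRA1∆i array was the higher one, by 0.16, 0.08 and 0.15 (mean change 0.13, adjusted p = 0.737, or 0.232 with the replicate block). MDH3 (YDL078C), the peroxisomal enzyme, differed by -0.06 (adjusted p = 0.829). MAE1 (YKL029C), the mitochondrial malic enzyme that turns malate into pyruvate, was measured at 13.59, 12.35 and 13.59 in YRA1∆i cells, against 13.12, 12.55 and 13.32 in WT cells. In both strains replicate 2 was well below the others, by 1.24 in YRA1∆i cells and 0.67 in WT cells, and the change of MAE1 between strains was 0.18 (adjusted p = 0.870), or 0.37 without both replicate 2 arrays (adjusted p = 0.0590).

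The glyoxylate bypass was measured through isocitrate lyase and malate synthase, which are used when sugars have to be built from acetyl-CoA. ICL1 (YER065C), the lyase, was measured at 11.45, 10.87 and 11.44 in YRA1∆i cells, against 11.51, 11.90 and 11.67 in WT cells. Every YRA1∆i array lay below every WT array, although YRA1∆i replicate 1 and WT replicate 1 were close. The change was -0.44 (SE 0.19, 95% confidence interval -0.89 to 0.02, 1.36-fold lower), with an unadjusted p of 0.0562 and an adjusted p of 0.325 in limma. Replicate 2 contributed most of it, with a difference of -1.03 beside -0.06 and -0.23 in replicates 1 and 3, and without both replicate 2 arrays the change was -0.14 (adjusted p = 0.240).

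MLS1 (YNL117W), the malate synthase, was measured at 9.35, 9.56 and 9.34 in YRA1∆i cells, against 8.83, 10.47 and 9.36 in WT cells. As for IDP2, the WT arrays spanned the YRA1∆i arrays, with WT replicate 2 the highest. The change of -0.14 (adjusted p = 0.901) was made of 0.52, -0.91 and -0.02 in replicates 1, 2 and 3, and it turned to 0.25 (adjusted p = 0.389) without both replicate 2 arrays. DAL7, the malate synthase gene of allantoin use, differed by 0.20 (adjusted p = 0.523).

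**Figure D2:**
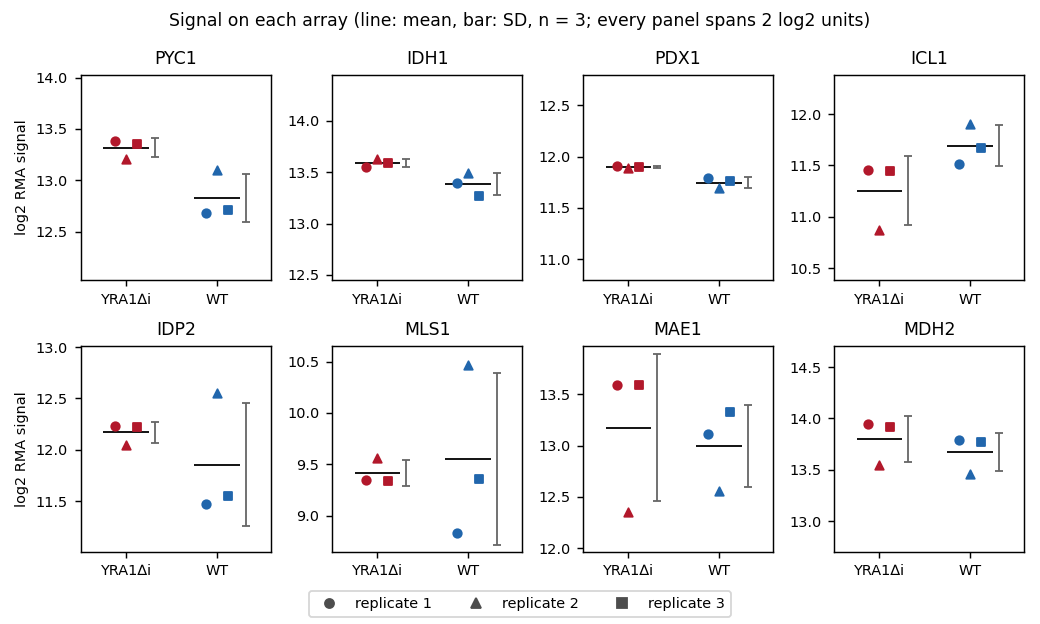
Log2 RMA signal of 8 genes on each array, YRA1∆i cells left and WT cells right, with a line at the mean, a bar for the SD (n = 3) and a symbol for each replicate number. The arrays do not overlap at PYC1, IDH1, PDX1 and ICL1, while at IDP2 and MLS1 WT replicate 2 (12.55 and 10.47) lies above all the others and at MAE1 replicate 2 is the lowest of each strain (12.35 and 12.55).

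Pyruvate carboxylase makes the oxaloacetate that replaces what biosynthesis draws from the cycle, and PYC1 gave the lowest p of the 29 genes. PYC1 (YGL062W) was measured at 13.38, 13.21 and 13.36 in YRA1∆i cells, against 12.68, 13.10 and 12.71 in WT cells. All YRA1∆i arrays were higher than all WT arrays, and again replicate 2 stood closest together. The change was 0.49 (SE 0.13, 95% confidence interval 0.18 to 0.80), with an unadjusted p of 0.00830 and an adjusted p of 0.157 in limma. It was 0.70, 0.12 and 0.65 in replicates 1, 2 and 3. The adjusted p was 0.0530 without WT replicate 2 (change 0.62), 0.00727 without both replicate 2 arrays (change 0.68) and 0.00397 with array weights (change 0.63), and it ranged from 0.00397 to 0.504 over all the alternatives.

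PYC2 (YBR218C), the other carboxylase gene, was measured at 13.22, 13.11 and 13.32 in YRA1∆i cells, against 13.24, 13.13 and 13.27 in WT cells. These values overlap throughout, and the change was 0.0075 (95% confidence interval -0.19 to 0.20, adjusted p = 0.975). PYC1 and PYC2 are close paralogs, and how far the probe set of each also reads the other was not tested.

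Without both replicate 2 arrays, 2 of the 29 genes passed an adjusted p below 0.05, PYC1 and IDP2, both higher in YRA1∆i cells and both outside mitochondria. That setting called 12.5% of all probe sets. The same 2 genes passed 0.05 with 1.5-fold, as did 4.2% of all probe sets, and the study's thresholds, as did 1.62%. With the replicate block, 0 of the 29 passed an adjusted p below 0.05, against 2.6% of all probe sets.

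Changes of isozymes were next set against each other within each array, so that a factor shared by the whole array drops out. For 8 pairs, the log2 signal of the isozyme named second was subtracted from that of the isozyme named first, and the result was compared between strains by an exact two-sided permutation test, for which 3 arrays against 3 cannot give less than 0.1. PYC2 minus PYC1 was the only pair to reach that smallest value. Relative to its mean over all arrays this difference was -0.31, -0.24 and -0.18 in YRA1∆i cells, against 0.42, -0.11 and 0.42 in WT cells, so PYC1 was relatively higher on every YRA1∆i array. The strains differed by -0.48 (SE 0.18, exact p = 0.1, adjusted p = 0.8 over the 8 pairs), and by -0.72, -0.13 and -0.60 in replicates 1, 2 and 3. PYC2 itself changed by 0.0075 and PYC1 by 0.49, so this pair mostly repeats the PYC1 change and is not separate evidence.

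The other 7 pairs overlapped between strains. IDP2 minus IDP1 differed by 0.35 (SE 0.36, exact p = 0.4) and ICL2 minus ICL1 by 0.31 (SE 0.37, exact p = 0.6). MDH2 minus MDH1 differed by 0.18 (SE 0.25, exact p = 0.5), with the YRA1∆i value the higher one in all 3 replicate numbers, though by only 0.02 in replicate 2. For CIT3 minus CIT1 the difference was -0.10, for IDP3 minus IDP1 -0.05 and for CIT2 minus CIT1 -0.03. MDH3 minus MDH1 was the steadiest pair, with a difference of -0.0077 (SE 0.04, exact p = 0.9). For these 7 pairs the adjusted p was 0.9, and with so few arrays a difference cannot be told from the spread, nor can the isozymes be said to move alike.

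**Figure D3:**
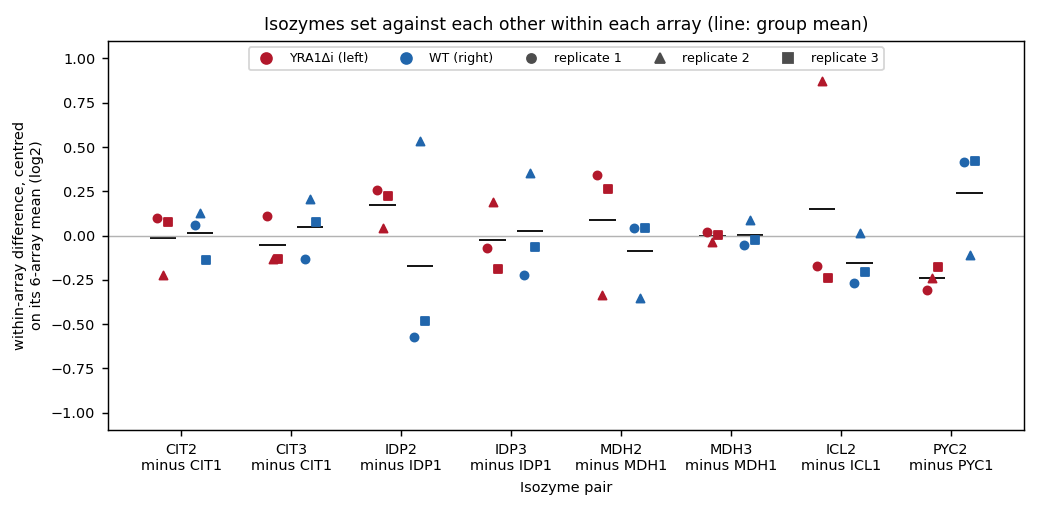
Log2 signal of an isozyme minus that of another on the same array, for 8 pairs along the horizontal axis, each centred on its mean over 6 arrays, with YRA1∆i cells left in red, WT cells right in blue, a line at each group's mean and a symbol for each replicate number. PYC2 minus PYC1 is lower on all YRA1∆i arrays (-0.31 to -0.18) than on any WT array (-0.11 to 0.42), and the other pairs overlap.

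Arrays with the number 2 stood out in both strains at many of these genes. Replicate 2 was the highest array of both strains at 17 of the 29 genes, or 58.6%, and the lowest of both at 4, or 13.8%, against 31.9% and 32.4% of all probe sets. Among the 10 mitochondrial enzymes CIT1, ACO1, IDH1, IDH2, KGD1, KGD2, LSC1, LSC2, FUM1 and MDH1, replicate 2 was the highest of both strains at 10, a subset that was picked out after the values were seen. The excess of replicate 2 over the mean of the other arrays of its strain was 0.40 in YRA1∆i cells and 0.37 in WT cells for LSC2, and 0.14 in YRA1∆i cells and 0.16 in WT cells for FUM1. SDH1 to SDH4 followed the same order at 4 of 4. At the 4 genes where replicate 2 was the lowest of both strains, MAE1, MDH2, PYC2 and PDX1, the gap in WT cells was 0.67, 0.31, 0.13 and 0.08.

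At some genes, such as ICL1, IDP2 and the mitochondrial PKP1, replicate 2 lay on opposite sides of the other arrays in the strains. PKP1 in replicate 2 lay 0.13 below the other YRA1∆i arrays and 0.18 above the other WT arrays. ICL1 in replicate 2 lay 0.58 below the other YRA1∆i arrays but 0.31 above the other WT arrays, and IDP2 lay 0.18 below in YRA1∆i cells and 1.04 above in WT cells. MLS1 did not part in this way, and lay 0.22 above in YRA1∆i cells and 1.37 above in WT cells. FBP1, the gluconeogenic fructose-bisphosphatase gene, lay 1.12 above in YRA1∆i cells and 2.58 above in WT cells in replicate 2, where it was measured at 9.29 in YRA1∆i cells and 10.28 in WT cells (change over all arrays -0.02, adjusted p = 0.994, or 0.47 without both replicate 2 arrays, adjusted p = 0.146). SFC1 encodes a mitochondrial protein, the succinate-fumarate carrier. The SFC1 signal was 10.41, 10.20 and 10.03 in YRA1∆i cells against 9.13, 10.84 and 9.76 in WT cells. Its change was 0.31 (adjusted p = 0.793), or 0.78 without both replicate 2 arrays (adjusted p = 0.109). FBP1 is named after its values were seen. No label gives a day, a growth stage or a batch for these cultures, and what the replicate number stands for was not tested.

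**Figure D4:**
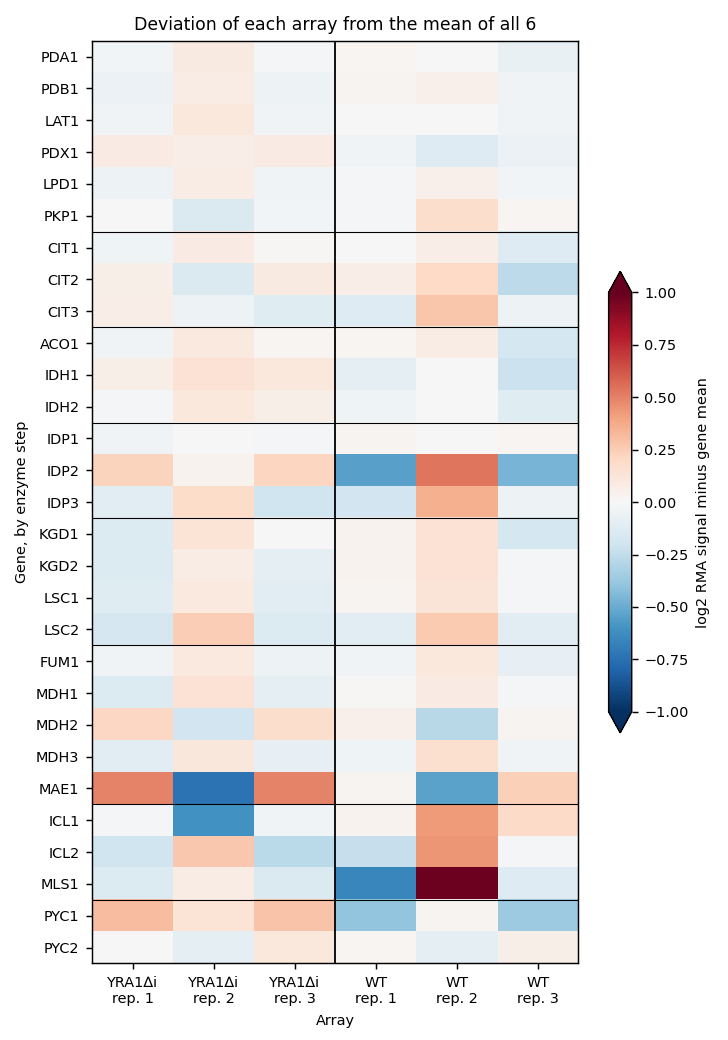
Log2 signal of each of the 29 genes (rows, by enzyme step) on each array (columns, YRA1∆i left and WT right) minus the mean of that gene over the 6 arrays, with red above and blue below the mean. The replicate 2 columns are red for most cycle enzymes in both strains, and MAE1 and MDH2 are blue in both, while ICL1 is blue in YRA1∆i replicate 2 and red in WT replicate 2.

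Genes around the cycle were read as lists, described by counts beside the table as a whole. Among the 73 genes measured, the strains did not overlap at 6 higher in YRA1∆i cells (background 13.6%) and 3 lower (background 8.57%). Of 73 genes measured in 7 lists, 0 passed the limits of 0.05 and 1.5-fold, 1 was higher (background 9.79%) and 3 were lower (background 6.31%) at an unadjusted p below 0.05, and the median change was 0.01. At an adjusted p below 0.05, 8 of the 73 passed without both replicate 2 arrays (background 12.5%) and 2 with the replicate block (background 2.6%). The higher one was PDC5, a pyruvate decarboxylase gene, at 10.72, 10.92 and 10.85 in YRA1∆i cells against 10.49, 10.44 and 10.33 in WT cells (change 0.41, adjusted p = 0.0976), while the main isozyme gene PDC1 differed by 0.0032. Besides AIM22, the lower ones were YHM2 and RDS2. YHM2, a mitochondrial carrier of citrate and oxoglutarate, was measured at 13.17, 13.13 and 13.11 in YRA1∆i cells against 13.33, 13.29 and 13.39 in WT cells (change -0.20, adjusted p = 0.194).

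RDS2, which encodes a zinc cluster activator of gluconeogenic genes, had the lowest p of these lists. It was measured at 9.67, 9.66 and 9.66 in YRA1∆i cells, against 10.15, 10.03 and 10.03 in WT cells, with no overlap and an even level within each strain. The change was -0.41 (SE 0.06, adjusted p = 0.0652 in limma). Adding the replicate block gave an adjusted p of 0.0491, and the range for RDS2 among all settings was 0.00347 to 0.332. Of the 17 regulators in its list, 3 had all YRA1∆i arrays above all WT arrays (background 13.6%), namely RTG2 (0.12, adjusted p = 0.403), MKS1 (0.16, adjusted p = 0.382) and MIG1 (0.11, adjusted p = 0.487). MKS1 and MIG1 were chosen after their values were seen.

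The regulators known best for these enzymes did not pass. HAP4, the limiting subunit of the respiratory activator, was measured at 13.18, 13.53 and 13.32 in YRA1∆i cells, against 13.35, 13.53 and 13.27 in WT cells, and replicate 2 was the highest of each strain. Its change was -0.04 (adjusted p = 0.902). CAT8 differed by -0.23 (adjusted p = 0.697) and SIP4 by 0.22 (adjusted p = 0.649), and SIP4 was at 0.52 without both replicate 2 arrays (adjusted p = 0.0141). RTG1 and RTG3, which form the retrograde factor, differed by 0.15 and 0.04, and ADR1, an activator of genes for ethanol use, by 0.01. PIP2, an oleate-responsive factor, differed by 0.26 (adjusted p = 0.368).

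In the remaining lists the genes with the lowest p in each direction were as follows. SHH4, a paralog of SDH4, differed by 0.29 (adjusted p = 0.341), or 0.36 without both replicate 2 arrays (adjusted p = 0.0312). SHH3, the SDH3 paralog, was measured at 8.61, 7.04 and 8.55 in YRA1∆i cells, against 7.31, 6.95 and 7.16 in WT cells, and is named after its values were seen. Its change was 0.92 (adjusted p = 0.360), or 1.34 without both replicate 2 arrays (adjusted p = 0.00356), the arrays on which the strains were close. PTC7, a mitochondrial phosphatase gene, differed by -0.21 (adjusted p = 0.316), with all YRA1∆i arrays below all WT arrays (background 8.57%). ACH1, which encodes a mitochondrial CoA transferase, differed by -0.28 (adjusted p = 0.373). GDH2, whose product breaks glutamate down to oxoglutarate, differed by 0.22 (adjusted p = 0.371), or 0.39 without both replicate 2 arrays (adjusted p = 0.0219), and GDH3, which makes glutamate, by -0.22 (adjusted p = 0.702).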

How the data were processed

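The authors deposited log2 values for 10928 probe sets on 6 arrays (Affymetrix Yeast Genome 2.0, 1 colour, biotin-labelled cRNA). Per the labels and the study's methods these were made by RMA, which corrects background, gives all arrays one distribution and summarises probes. A shift common to nearly all mRNAs is therefore lost. Versions and a genome build are not given in the sources used here. Groups came from the sample titles, which call the replicates biological.

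Gene names came from the annotation of the platform, updated through RefSeq (R64), and gave 5498 S. cerevisiae probe sets of 5449 genes. Another 1747 named probe sets were taken as S. pombe, and the 95th percentile of their means served as background. The succinate dehydrogenase paralog YJL045W was not matched. The fit used limma 3.58.1 (R 4.3.3) with group as its only term, without a filter, with p-values adjusted over all 5498, and the script was tested on simulated data. Thresholds were the methods' (adjusted p below 0.01 and 1.5-fold) and a looser one (0.05 and 1.5-fold). Isozymes were compared by exact permutation tests. Intervals are 95%.

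Genes named were all 29 members, the gene with the lowest p in each direction of each list, and a fixed set of regulators and markers, with others marked as named after their values were seen. The members and lists were chosen with earlier results of these data known. Same-numbered arrays deviated together from their group means (correlations 0.344, 0.695 and 0.301 for numbers 1, 2 and 3 over the tested probe sets). Differences within a replicate number and the replicate block take the numbers as pairs, while the main fit did not. The deviations of YRA1∆i replicate 1 correlated better with WT replicate 3 (0.582), and those of YRA1∆i replicate 3 with WT replicate 1 (0.664). For these numbers the pairing rests only on the shared number, since the titles state no pairing. Alternatives were other scalings, filters and fits, the replicate block, and arrays left out. The number of arrays limits the precision.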

Additional observations from a re-analysis of the deposited data

How the results depend on the processing

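Counts of calls moved most with array weights and with both replicate 2 arrays left out. With both replicate 2 arrays left out, 2 of the 29 genes passed an adjusted p below 0.05 (12.5% of all probe sets). In that setting 2 also passed with 1.5-fold (4.2% of all), and 2 passed the study's thresholds (1.62% of all). At an unadjusted p below 0.05, 5 were higher (18.3% of all). With 2 arrays a strain, 7 did not overlap higher (34% of all) and 10 did not overlap lower (30.2% of all). With array weights, 3 of the 29 genes passed an adjusted p below 0.05 (17.8% of all probe sets). With these weights 2 passed with 1.5-fold (3.95% of all) and 1 passed the study's thresholds (2.76% of all). At an unadjusted p below 0.05 there were 5 higher (20.8% of all) and 1 lower (15.1% of all). Quantile normalization left 1 gene without overlap on the lower side, and testing all probe sets of the table gave 1 lower gene at an unadjusted p below 0.05. Leaving out 1 array at a time gave 1 to 3 higher and 0 to 1 lower genes at an unadjusted p below 0.05. It gave 3 to 5 that did not overlap higher and 2 to 10 lower, and 0 past any adjusted threshold. Leaving out an array can only keep or raise the number without overlap, at any set of genes. The shares of all probe sets at an unadjusted p or without overlap were not computed for these fits. These counts are therefore not read as a result about the 29 genes.

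Over all probe sets, those past 0.05 and 1.5-fold numbered 79 with the replicate block, 217 with array weights, 231 without both replicate 2 arrays and 0 to 115 with 1 array left out. Without a minimum fold the counts were 143 with the replicate block, 981 with array weights, 685 without both replicate 2 arrays and 0 to 146 with 1 array left out. At the study's thresholds they were 3 without dim probe sets, 4 with all probe sets of the table, 1 with an intensity trend, 152 with array weights, 89 without both replicate 2 arrays and 0 to 29 with 1 array left out. The replicate block called 0 of the 29 genes at an adjusted p below 0.05, and among the genes named it moved AIM22 (0.0470), RDS2 (0.0491) and MF(ALPHA)1 (0.0337) below 0.05 and ended no call. YRA1 kept a change of 1.14 to 1.25 with 1 array left out. Its adjusted p was above 0.05 without YRA1∆i replicate 1 (0.109), YRA1∆i replicate 3 (0.112), WT replicate 1 (0.0989) or WT replicate 3 (0.0802), fits that called 0 of all probe sets.

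The median change of the 29 genes was 0.0078 after quantile normalization, 0.0087 without both replicate 2 arrays and -0.0384 to 0.0527 with 1 array left out. That of the mitochondrial genes was -0.0416 to 0.0487 with 1 array left out, and that of the other genes was 0.15 without both replicate 2 arrays and -0.0899 to 0.0789 with 1 array left out. Of the 29 genes, 12 kept their sign in all 15 alternatives and 17 did not. With array weights the sign turned at PDA1 (-0.0029), LAT1 (-0.0229), FUM1 (-0.0097) and MLS1 (0.18). It turned without both replicate 2 arrays at LAT1 (-0.0196), CIT3 (0.0641) and MLS1 (0.25), and after quantile normalization at LPD1 (0.0146), CIT2 (-5e-04) and KGD1 (0.0078). With 1 array left out the sign also turned within these ranges: PDA1 -0.0019 to 0.0572, LAT1 -0.0255 to 0.0455, LPD1 -0.0449 to 0.0178, CIT1 -0.0193 to 0.0780, CIT2 -0.13 to 0.10, CIT3 -0.15 to 0.0556, ACO1 -0.0183 to 0.11, IDP3 -0.19 to 0.0789, KGD1 -0.0907 to 0.0680, LSC2 -0.17 to 0.0847, FUM1 -0.0378 to 0.0622, MDH1 -0.14 to 0.0042, MDH3 -0.13 to 0.0093, MAE1 -0.0463 to 0.59, ICL2 -0.30 to 0.0527, MLS1 -0.50 to 0.32 and PYC2 -0.0442 to 0.0594. Outside the 29 genes the ranges that crossed 0 were HAP4 -0.13 to 0.0443, RTG1 -0.0069 to 0.26, ADR1 -0.0095 to 0.0351, SFC1 -0.0836 to 0.77 and GDH3 -0.34 to 0.0293. Isozyme differences that crossed 0 were CIT2 minus CIT1 (-0.11 to 0.0715), IDP3 minus IDP1 (-0.17 to 0.12), MDH3 minus MDH1 (-0.0353 to 0.0331) and ICL2 minus ICL1 (-0.0544 to 0.50). The cause of these shifts was not tested. With 3 arrays a strain, changes of the size seen at most of these genes lie within the spread between arrays, and signals near the top of the scale limit what can be seen.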
